A study of Mus musculus with 9 samples.

Results

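The serpin, kallikrein and Spink genes were examined in keratinocytes sorted from mouse back skin. The members were every protein-coding gene whose symbol begins with Serpin, Klk or Spink. The rule took 102 genes out of 55357 gene identifiers in the deposited table, of which 21876 are protein coding. They comprised 27 Klk genes, 24 Serpina genes, 27 Serpinb genes, 11 other serpins and 13 Spink genes. By its symbol, Klkb1, the plasma prekallikrein gene, counts among the Klk genes, although it lies outside the tissue kallikrein locus. A member was reported where its mean TPM (a relative level scaled by transcript length) was 1 or more in at least 1 group. This left 37 reported genes, and the other 65 stayed below.

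Serpins are a large family of proteins, most of which trap a protease in a covalent complex and lose their own fold in doing so. Clade A serpins are mostly secreted, whereas clade B serpins act mostly inside cells and are abundant in squamous epithelia. Tissue kallikreins are secreted serine proteases, several of which cleave the junctions between cornified cells during shedding of the skin surface, and Spink proteins are Kazal-type inhibitors, of which the Spink5 product restrains kallikreins in the epidermis.

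Poly(A) RNA-seq libraries were made from 3 populations, with 3 libraries each. All mice were C57BL/6, carried the TNC-CREER transgene with a tdTomato reporter, were given tamoxifen and were 60 days old at collection. TNC-CREER is an inducible Cre recombinase under the control of the Tenascin-C gene, so that cells which expressed Tenascin-C at the time of tamoxifen, and their progeny, carry the reporter. The 3 sort gates had EPCAM and integrin α6 in common. Touchdome cells, the keratinocytes of patches where Merkel cells meet sensory nerves, were in addition SCA1+ and tdTomato+. HF (hair follicle) cells were SCA1- and tdTomato-. IFE (interfollicular epidermis) cells were SCA1+ and tdTomato-. The Touchdome group thus rests on where the Tenascin-C driver was active, and the gates kept integrin α6+ cells, mostly of the basal layer. Whether the 3 libraries of a group are separate animals is not stated in the labels, and the p-values therefore reflect the variation among these libraries, part of which may be technical.

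Total expected counts were 9295059 to 28249763 per library. The summed TPM of 6 basal keratinocyte markers was between 25366 and 44591 in the 9 libraries, and that of 6 hair follicle stem cell markers was 554 to 1122 in Touchdome, 3876 to 4381 in HF and 246 to 339 in IFE libraries. Touchdome replicate 3 stood closer to the HF libraries than the other Touchdome libraries did, with a first principal component (59.2% of the variance) of -2.86, against -37.6 and -40.7 in Touchdome replicates 1 and 2. Of 6 Merkel cell markers, Atoh1 and Sox2 had 0 TPM in every library, whereas Krt8 was at 6.55, 0.76 and 0.94 TPM in Touchdome, 1.95, 1.66 and 2.47 TPM in HF and 0.09, 0 and 0.06 TPM in IFE libraries (log2 fold change 5.37, adjusted p = 0.0225 in Touchdome against IFE, edgeR).

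Sequence upstream of 4 neighbouring Serpinb genes on chromosome 1 is shown, because Serpinb11 stood apart from the 3 genes that follow it in direction of change, as described further on.
Each run holds the 250 bases before 1 annotated start, 5′ to 3′ on the plus strand, from RefSeq (GRCm38.p6), which is not the build the authors used.
Capitals mark matches, on either strand, to a TATA box (TATAAA), a loose form of the AP-1 motif (TGANTCA, with any middle base) or a CCAAT box (CCAAT).
The windows are chr1:107362064-107362313 for Serpinb11, chr1:107422439-107422688 for Serpinb7, chr1:107511173-107511422 for Serpinb2 and chr1:107528753-107529002 for Serpinb10.

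Serpinb11: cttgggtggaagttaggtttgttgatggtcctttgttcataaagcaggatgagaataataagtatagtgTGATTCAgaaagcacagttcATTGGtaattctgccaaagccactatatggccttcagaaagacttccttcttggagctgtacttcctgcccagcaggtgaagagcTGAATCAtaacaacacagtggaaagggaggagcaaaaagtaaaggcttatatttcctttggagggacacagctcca
Serpinb7: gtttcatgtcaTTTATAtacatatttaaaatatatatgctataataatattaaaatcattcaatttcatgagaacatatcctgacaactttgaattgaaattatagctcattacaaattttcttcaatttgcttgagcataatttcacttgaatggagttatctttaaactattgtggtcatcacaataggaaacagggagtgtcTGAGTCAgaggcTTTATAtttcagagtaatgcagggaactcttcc
Serpinb2: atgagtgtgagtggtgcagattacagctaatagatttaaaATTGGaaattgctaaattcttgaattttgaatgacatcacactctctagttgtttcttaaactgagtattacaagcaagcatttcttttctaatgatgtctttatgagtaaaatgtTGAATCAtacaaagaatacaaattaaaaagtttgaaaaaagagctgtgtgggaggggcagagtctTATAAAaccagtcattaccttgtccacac
Serpinb10: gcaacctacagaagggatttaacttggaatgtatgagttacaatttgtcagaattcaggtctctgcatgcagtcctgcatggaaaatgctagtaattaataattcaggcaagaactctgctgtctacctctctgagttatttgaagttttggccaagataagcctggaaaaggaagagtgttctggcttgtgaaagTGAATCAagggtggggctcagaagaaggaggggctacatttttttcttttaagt

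Each of these 4 windows held a match to this loose AP-1 motif, and that of Serpinb11 held 2. The letters were TGAGTCA in Serpinb7, TGAATCA in Serpinb2 and Serpinb10, and TGATTCA and TGAATCA in Serpinb11. Over all 32851 RefSeq windows of this length, 6.75% held an AP-1 match, 12.4% a TATA box and 33.8% a CCAAT box. Of the 37 reported genes, 32 had a window in the table, of which 7 held an AP-1 match, 6 a TATA box and 9 a CCAAT box. The 7 genes with an AP-1 match were Serpinb5, Serpinb12, Serpinb11, Serpinb7, Serpinb2, Serpinb10 and Serpinb8, which lie in a single run on chromosome 1 and include genes that were high, low and not called in HF cells. The window of Serpinb3b, in the same run, held no AP-1 match. Of the 7 genes, only Serpinb7 and Serpinb8 held TGAGTCA, and the others held TGAATCA or TGATTCA. No matches of different motifs overlapped in the 4 printed windows, and a match describes these letters only. Which start is used in these cells is not known, and Serpinb2 has 2 starts in the table, of which the 5′-most was taken.

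The reported genes were 13 of 27 Serpinb, 8 of 27 Klk, 8 of 24 Serpina, 6 of 11 other serpin and 2 of 13 Spink genes. Of the 102 members, 44 had no count in any library. The members nearest to the threshold were Serpinb6e (1.15 TPM in its highest group), Serpinc1 (1.38) and Serpina12 (1.57) on the inside and Serpinb6b (0.797), Serpina3c (0.69) and Spink4 (0.583) on the outside. In 25 reported genes the mean reached 1 TPM in each of the 3 groups, and in 6 it did so in 2 groups. In the remaining 6 it did so in 1 group, which was Touchdome for Klk13 and HF for Serpina3n, Serpina9, Serpinb6c, Serpinb6e and Serpinf1. For these 6 genes the threshold itself selects a group in which they are high.

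**Figure D1:**
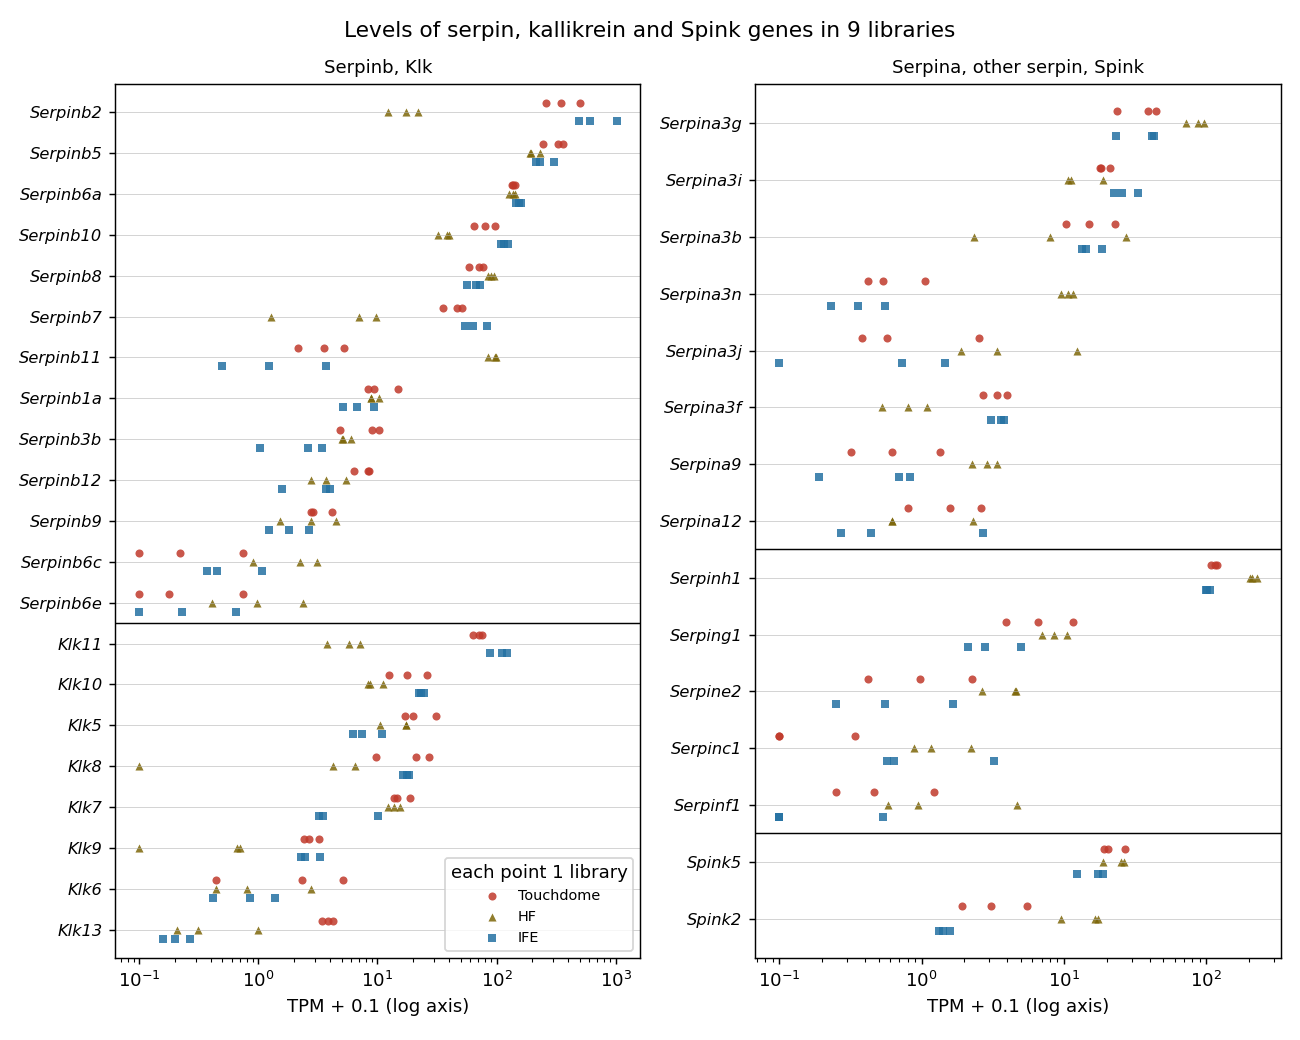
TPM + 0.1 on a log axis of 36 of the 37 reported genes, 1 point per library, for Touchdome (circles), HF (triangles) and IFE (squares). Serpinb2, Serpinb7, Klk11 and Serpinb10 have HF points below those of both other groups, whereas Serpinb11 and Serpina3n have HF points above them, and Klk13 is higher in the 3 Touchdome libraries (3.32 to 4.12 TPM) than in the others.

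By summed level, the Serpinb genes made up most of the family in every library. Their summed TPM was 1245, 1066 and 842 in Touchdome, 597, 629.7 and 609 in HF and 1729, 1127 and 1260.0 in IFE libraries. The sum was lower in each HF library than in any library of the other groups, whereas Touchdome and IFE libraries overlapped. The Klk genes summed to 167, 162 and 136 TPM in Touchdome, 51.1, 43.4 and 53.0 TPM in HF and 168, 186 and 141 TPM in IFE libraries, again with HF below both other groups. The Serpina sum, but not every Serpina gene, ran the other way, with 57.9 to 92.6 TPM in Touchdome, 100.0 to 171 TPM in HF and 76.4 to 91.4 TPM in IFE libraries. Serpina3g made up most of it in HF, at 71.6 to 96.7 TPM. Of the reported Serpina genes, Serpina3n, Serpina9 and Serpina3j also had their highest mean in HF, whereas Serpina3f, Serpina3i and Serpina3b had their lowest there. The pseudogene Serpina3h, described at the end, is not in this sum. It stood at 239.6 to 360.0 TPM in Touchdome, 117 to 133 TPM in HF and 311 to 347 TPM in IFE libraries. With it added, the sum would be lowest in HF. The other serpins summed to 116 to 155 TPM in Touchdome, 232 to 257 TPM in HF and 109.7 to 141 TPM in IFE libraries. The Spink genes summed to 23.7 to 28.5 TPM in Touchdome, 34.9 to 43.5 TPM in HF and 13.8 to 20.1 TPM in IFE libraries, so that these 3 groups did not overlap. A sum is carried by its most abundant genes, and in bulk samples fewer cells of a type and less RNA per cell cannot be told apart.

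**Figure D2:**
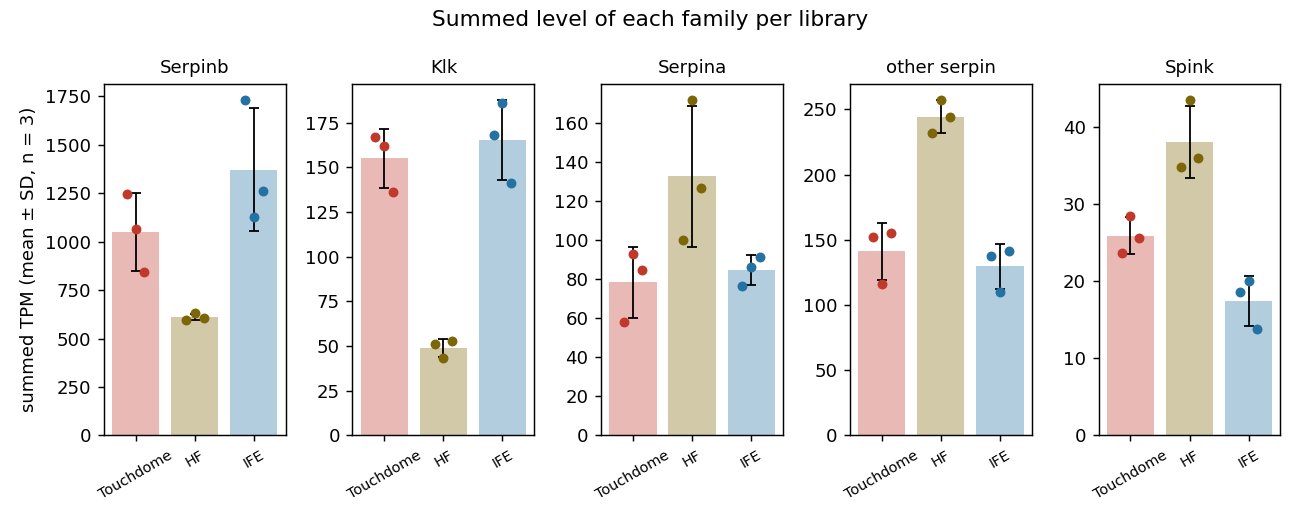
Summed TPM of each gene family by group (Touchdome, HF, IFE), with bars for the mean, error bars for the SD (n = 3) and 1 point per library. Serpinb and Klk sums are lowest in HF (597 to 629.7 and 43.4 to 53.0 TPM), and other serpin and Spink sums are highest there.

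Differences between groups were tested with edgeR's quasi-likelihood test over all 15046 genes that passed a filter on low counts, and a gene was called at a Benjamini-Hochberg adjusted p under 0.05. Of the members, 34 passed the filter, which were 33 of the reported genes and Serpina3c. The reported genes Klk6, Serpinb6c, Serpinb6e and Serpinf1 did not pass and have no test.

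Few members passed the test between Touchdome and IFE cells. Of the 34 tested members, 1 was called higher in Touchdome than in IFE and 0 were called lower, against 1.22% of all genes called higher and 0.0798% called lower (1.3% in all). At an unadjusted p under 0.05 the numbers were 7 higher and 6 lower, DESeq2 called 4 higher and 3 lower, and edgeR with the replicate number as a block called 2 higher and 3 lower. The shares of all genes hold for the main edgeR fit at an adjusted p, and those under these other rules are not given here. The median log2 fold change of the tested members was 0.089, against 0.005 for all genes.

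More members passed it between Touchdome and HF cells, and between HF and IFE cells. In Touchdome against HF, 10 tested members were called higher and 6 lower, which is 47.1% of the 34, against 24.6% of all genes (11.8% higher and 12.8% lower). The median log2 fold change was 0.36 over the tested members and -0.004 over all genes. In HF against IFE, 8 were called higher and 11 lower, which is 55.9% of the 34, against 33.0% of all genes (17.1% higher and 16.0% lower). With limma on log2(TPM + 1) the split was 12 higher and 9 lower, and with log2(TPM + 0.1) it was 12 higher and 8 lower, on scales where the median of all genes stood at 0.19 and 0.21 in place of 0.004. The comparisons share libraries, so a gene that is extreme in HF enters both.

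**Figure D3:**
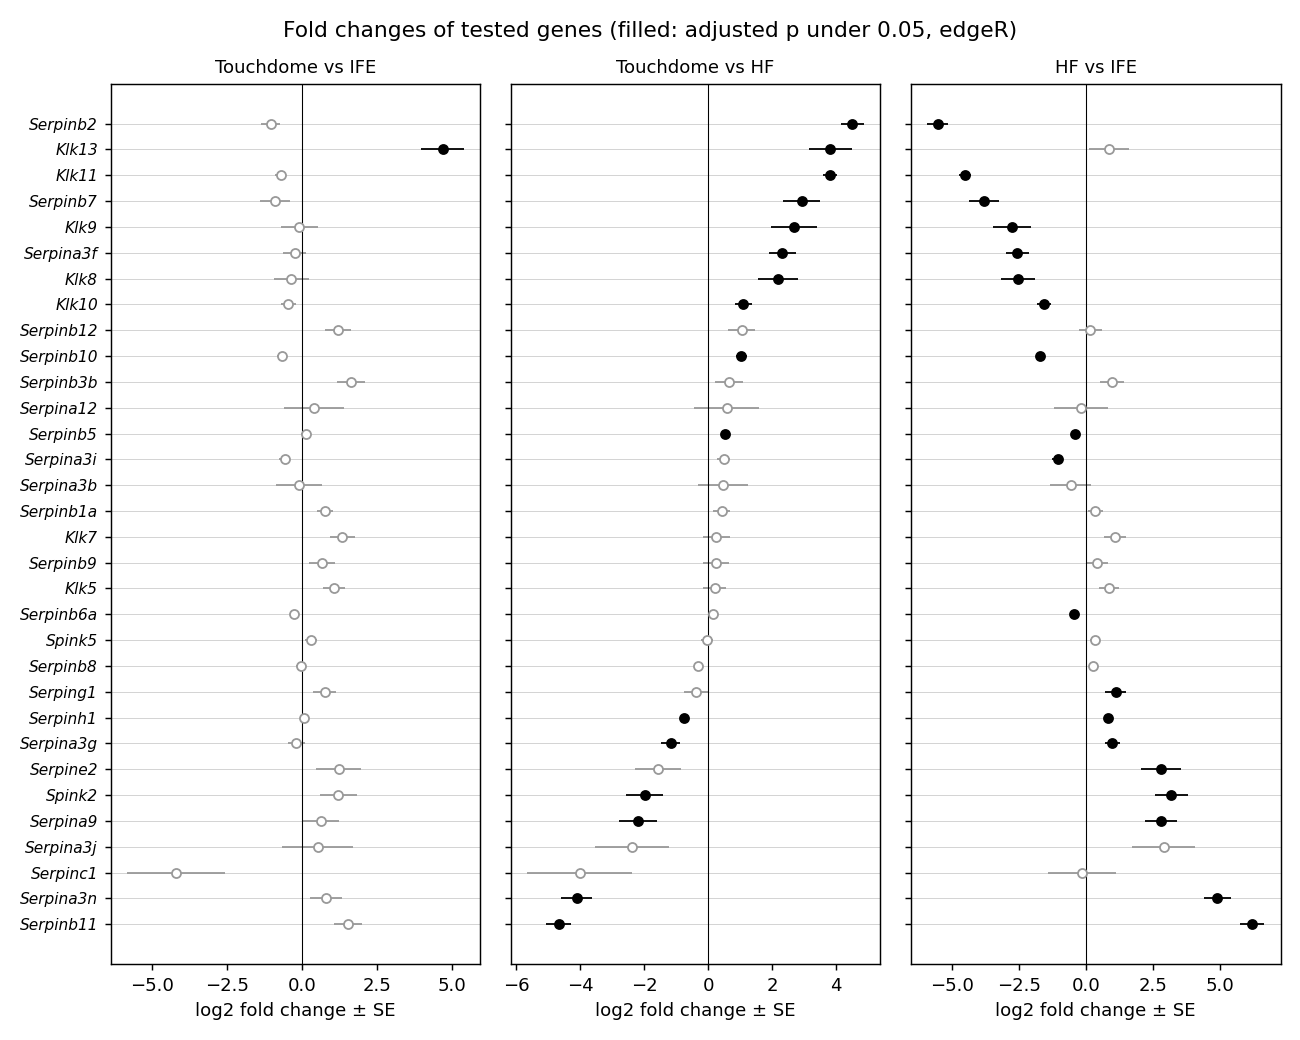
Log2 fold change with its SE (edgeR) of 32 of the 33 reported genes that were tested, in Touchdome vs IFE, Touchdome vs HF and HF vs IFE, with filled points where the adjusted p was under 0.05. One gene, Klk13, is filled in Touchdome vs IFE, against 16 in Touchdome vs HF and 19 in HF vs IFE.

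Klk13 (ENSMUSG00000054046), a kallikrein of stratified epithelia, was the member called between Touchdome and IFE. It stood at 3.77, 3.32 and 4.12 TPM in Touchdome, 0.89, 0.11 and 0.21 TPM in HF and 0.10, 0.06 and 0.17 TPM in IFE libraries, from 36 to 59 counts per Touchdome library and 1 to 8 counts per library of the other groups. The 3 Touchdome libraries lay above all others, and HF and IFE overlapped. Its log2 fold change was 4.67 ± 0.71 (SE, adjusted p = 0.00544, edgeR) in Touchdome against IFE and 3.82 ± 0.67 (adjusted p = 0.00108) in Touchdome against HF, and was not called in HF against IFE (0.86 ± 0.75, adjusted p = 0.412). With 8 counts over the 3 IFE libraries, the size of this fold is imprecise. Several summed marker levels were also higher in Touchdome than in IFE libraries without overlap. Those of 7 suprabasal keratinocyte markers were at 6207 to 8477 TPM in Touchdome and 3450 to 4976 TPM in IFE, and those of 6 fibroblast markers at 32.4 to 42.5 TPM in Touchdome and 0.21 to 1.61 TPM in IFE. The 6 Merkel cell markers summed to 1.38 to 9.5 TPM in Touchdome and 0.11 to 0.34 TPM in IFE, the 5 T cell markers to 5.38 to 10.2 TPM in Touchdome and 2.97 to 4.62 TPM in IFE, and the 5 endothelial markers to 1.69 to 3.51 TPM in Touchdome and 0.63 to 1.52 TPM in IFE. The hair follicle stem cell and melanocyte sums (8.76 to 39.5 TPM in Touchdome and 4.44 to 7.5 TPM in IFE for the melanocyte markers) were higher in Touchdome than in IFE as well. Of these sums, those of suprabasal keratinocyte, T cell and fibroblast markers also lay above HF, as Klk13 did, with T cell markers at 2.09 to 3.89 TPM in HF. Their genes went different ways in Touchdome against HF. Among fibroblast markers Dcn was higher (17.7 to 26.8 against 0 to 0.07 TPM) and Col1a2 lower (log2 fold change -1.83, adjusted p = 0.00126, edgeR). Krt1, Krt10 and Krtdap were called higher, whereas Sbsn (-0.55) and Ivl (-0.73) were lower and not called. Cd3e was called higher (3.67, adjusted p = 0.014) and Cd3g was not (0.47, adjusted p = 0.698). In Touchdome against IFE, edgeR called 0 of 7 tested suprabasal, 0 of 3 T cell, 0 of 2 endothelial and 0 of 4 melanocyte markers. Called higher there were 2 of 5 fibroblast, 3 of 6 hair follicle stem cell and 1 of 1 Merkel cell markers (Krt8). Of all genes, 1.3% were called in that comparison. The part of these markers in the Klk13 difference was not tested.

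Klk11, Klk10, Klk9 and Klk8 were low in HF cells. Klk11 (ENSMUSG00000067616), the most abundant kallikrein gene in Touchdome and IFE cells, stood at 74.9, 71.1 and 63.5 TPM in Touchdome, 7.06, 5.73 and 3.69 TPM in HF and 112, 122 and 87.6 TPM in IFE libraries. None of the 3 groups overlapped, with HF far below the others. The fitted log2 fold change was 3.80 ± 0.22 (adjusted p = 1.77e-07, edgeR) in Touchdome against HF and -4.52 ± 0.22 (adjusted p = 3.15e-08) in HF against IFE. In Touchdome against IFE it was -0.72 ± 0.18 (adjusted p = 0.0829), and with the replicate number as a block -0.71 (adjusted p = 0.0153).

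Klk10 stood at 25.9, 12.4 and 17.6 TPM in Touchdome, 8.57, 11 and 8.22 TPM in HF and 22.4, 24.4 and 23.03 TPM in IFE libraries. HF lay below both other groups, which overlapped. On the log2 scale the fold change was 1.11 ± 0.26 (adjusted p = 0.00801, edgeR) in Touchdome against HF and -1.56 ± 0.26 (adjusted p = 0.000521) in HF against IFE. Klk8, which encodes neuropsin, a protease of brain and skin, stood at 21.1, 26.8 and 9.69 TPM in Touchdome, 4.15, 0 and 6.41 TPM in HF and 16.3, 18.4 and 17.7 TPM in IFE libraries. HF replicate 2 held no count of Klk8 or of Klk9. The expected counts of Klk8 were not whole in 5 libraries, so some of its reads were divided between genes. The log2 fold change of Klk8 was 2.19 ± 0.63 (adjusted p = 0.0276) in Touchdome against HF and -2.55 ± 0.63 (adjusted p = 0.00988) in HF against IFE. The first of these calls was lost without HF replicate 1 (adjusted p = 0.0611), Touchdome replicate 1 (0.0734) or Touchdome replicate 2 (0.0649), with no filter on low counts (0.0643) and with the IFE libraries left out of the fit (0.069). Both calls were lost with limma on log2(TPM + 0.1), with an adjusted p of 0.133 and 0.106. Klk9 was at 2.34 to 3.14 TPM in Touchdome, 0 to 0.61 TPM in HF and 2.17 to 3.18 TPM in IFE libraries, with log2 fold changes of 2.69 (adjusted p = 0.0147) in Touchdome against HF and -2.78 (adjusted p = 0.0088) in HF against IFE.

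Klk5 and Klk7 encode the kallikreins best known for cleaving corneodesmosome proteins, and the main edgeR fit called neither in any comparison. Klk5 stood at 19.8, 30.8 and 16.98 TPM in Touchdome, 17.4, 10.3 and 17.4 TPM in HF and 10.9, 7.27 and 6.17 TPM in IFE libraries, so that Touchdome lay above IFE without overlap (log2 fold change 1.07 ± 0.36, adjusted p = 0.253, edgeR). Klk7 stood at 13.6, 14.5 and 18.8 TPM in Touchdome, 12.1, 13.6 and 15.5 TPM in HF and 3.39, 10.1 and 3.11 TPM in IFE libraries, also with Touchdome above IFE (1.34 ± 0.43, adjusted p = 0.241). IFE replicate 2 stood far above the other IFE libraries in Klk7, and without it the log2 fold change was 2.16 (adjusted p = 0.00107). In HF against IFE the log2 fold change was 0.86 ± 0.36 (adjusted p = 0.0863) for Klk5 and 1.08 ± 0.43 (adjusted p = 0.0782) for Klk7. DESeq2 called Klk7 higher in Touchdome than in IFE (1.33, adjusted p = 0.036) and higher in HF than in IFE (1.07, adjusted p = 0.0269). Klk6 was at 0.34 to 5.01 TPM in Touchdome, 0.34 to 2.7 TPM in HF and 0.32 to 1.28 TPM in IFE libraries, from 2 to 13 counts per library.

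Along chromosome 7 the called kallikrein genes were neighbours. Klk11, Klk10, Klk9 and Klk8 follow each other with no protein-coding gene between them in the RefSeq table, and each was higher in Touchdome than in HF and lower in HF than in IFE. The next genes are Klk7, Klk6 and Klk5, which were not called or not tested. Klk13 is separated from Klk11 by Klk12, which had a mean TPM under 1 in each group. Of the 27 Klk members, 19 were not reported, and 15 had no count in any library, among them Klk1 and the Klk1b genes.

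**Figure D4:**
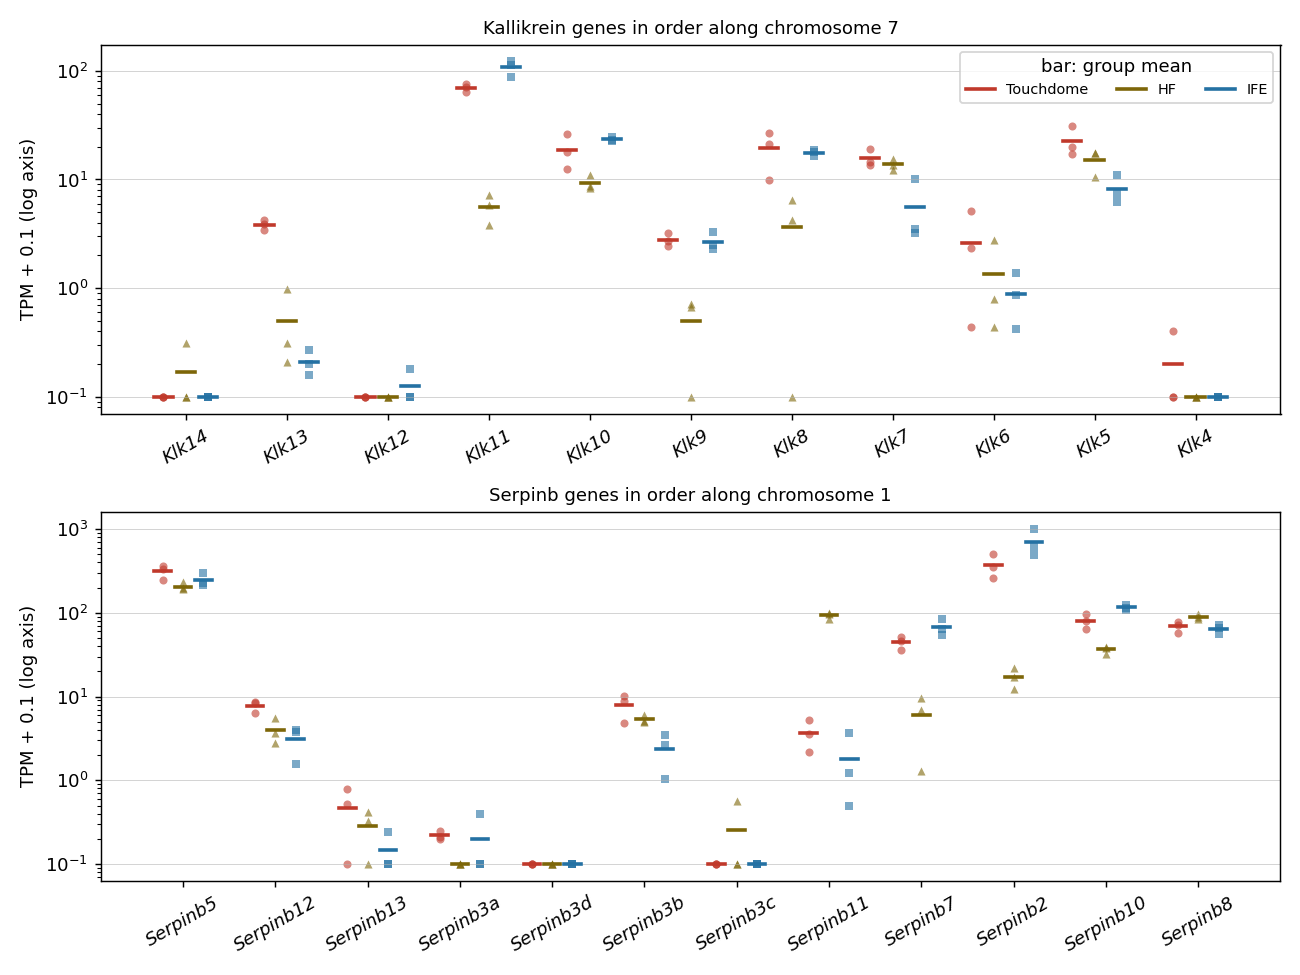
TPM + 0.1 on a log axis for kallikrein genes (top) and Serpinb genes (bottom) in their order along the chromosome, not to scale of distance, with 1 point per library and a bar for each group mean (Touchdome, HF, IFE). HF is lowest at Klk11 to Klk8 and at Serpinb7, Serpinb2 and Serpinb10, and Serpinb11 beside them is highest in HF (84.9 to 99.5 TPM).

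Spink5 encodes LEKTI, the multi-domain inhibitor of epidermal kallikreins that is lost in Netherton syndrome in humans. It stood at 18.9, 26.7 and 20.3 TPM in Touchdome, 25.3, 26.5 and 18.8 TPM in HF and 17.3, 18.8 and 12.3 TPM in IFE libraries. It was not called in any comparison (adjusted p = 0.684 in Touchdome against IFE, 0.942 in Touchdome against HF and 0.223 in HF against IFE, edgeR). Spink2, known as an acrosin inhibitor of sperm, stood at 3.0, 1.81 and 5.42 TPM in Touchdome, 9.44, 16.3 and 17.3 TPM in HF and 1.23, 1.31 and 1.48 TPM in IFE libraries. The groups did not overlap, with HF highest and IFE lowest. The log2 fold change here was 3.19 ± 0.62 (adjusted p = 0.00143) in HF against IFE and -1.99 ± 0.59 (adjusted p = 0.0249) in Touchdome against HF. The call in Touchdome against HF was lost without HF replicate 2 (adjusted p = 0.0693), HF replicate 3 (0.105), Touchdome replicate 1 (0.0791) or Touchdome replicate 2 (0.0775).

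Among the clade B serpins, Serpinb2, Serpinb7 and Serpinb10 were low in HF cells and Serpinb11 was high. Serpinb2 (ENSMUSG00000062345) encodes plasminogen activator inhibitor type 2, which blocks urokinase. It stood at 504, 350.4 and 260.1 TPM in Touchdome, 21.99, 17.3 and 12.1 TPM in HF and 1016, 489.8 and 607 TPM in IFE libraries. HF lay far below both other groups, and Touchdome overlapped IFE, since Touchdome replicate 1 exceeded IFE replicate 2. Its log2 fold change was 4.51 ± 0.36 (adjusted p = 2.49e-05, edgeR) in Touchdome against HF and -5.56 ± 0.38 (adjusted p = 5.7e-06) in HF against IFE. In Touchdome against IFE it was -1.05 ± 0.31 (adjusted p = 0.21), and with the replicate number as a block -1.07 (adjusted p = 0.00209).

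Serpinb7 is a clade B serpin whose loss causes a palmoplantar keratosis in humans. It stood at 51.1, 46.3 and 35.7 TPM in Touchdome, 9.56, 1.19 and 6.86 TPM in HF and 63.8, 54.8 and 83.4 TPM in IFE libraries, with each group apart from the others. The fitted log2 fold change was 2.93 ± 0.57 (adjusted p = 0.00698, edgeR) in Touchdome against HF and -3.82 ± 0.58 (adjusted p = 0.00136) in HF against IFE. In Touchdome against IFE it was -0.89 ± 0.50 (adjusted p = 0.63), and with the HF libraries left out of the fit -0.88 (adjusted p = 0.0295). Serpinb10 stood at 79.5, 96.1 and 64.8 TPM in Touchdome, 32.03, 38.2 and 39.6 TPM in HF and 115, 125 and 109 TPM in IFE libraries, again with no overlap. On the log2 scale the fold change was 1.04 ± 0.17 (adjusted p = 0.000707) in Touchdome against HF and -1.72 ± 0.17 (adjusted p = 9.62e-06) in HF against IFE. In Touchdome against IFE it was -0.68 ± 0.17 (adjusted p = 0.0797), and with the block -0.68 (adjusted p = 0.0298). The expected counts of Serpinb10 and of its neighbour Serpinb2 were not whole in 6 libraries each, so some of their reads were divided between genes and their values are uncertain to that extent.

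Serpinb11 (ENSMUSG00000026327), a trypsin inhibitor in mouse, stood at 2.07, 3.46 and 5.1 TPM in Touchdome, 96.6, 84.9 and 99.5 TPM in HF and 0.40, 3.58 and 1.13 TPM in IFE libraries. The lowest HF library was far above the highest library of the other groups, which overlapped. The log2 fold change here was -4.68 ± 0.40 (adjusted p = 3.28e-05, edgeR) in Touchdome against HF and 6.20 ± 0.44 (adjusted p = 6.12e-06) in HF against IFE, the greatest rise of any member. In Touchdome against IFE it was 1.53 ± 0.46 (adjusted p = 0.219, and 0.00293 with DESeq2). The summed sebaceous gland markers moved with it (26.2 to 66.9 TPM in Touchdome, 199 to 366 TPM in HF and 18.02 to 26.8 TPM in IFE for 6 genes), as did the summed melanocyte markers (8.76 to 39.5, 57.7 to 71.1 and 4.44 to 7.5 TPM for 6 genes) and the hair follicle stem cell markers. Mgst1, at 183 to 300 TPM, made up most of the sebaceous sum in HF. Of 5 tested sebaceous markers, 3 were called lower in Touchdome than in HF, and Scd3 and Awat2 were not (adjusted p = 0.365 and 0.148, edgeR). Mitf, at 46.4 to 55.5 TPM, made up most of the melanocyte sum in HF. The melanocyte markers Dct, Tyrp1 and Pmel were not called in Touchdome against HF (adjusted p = 0.753, 0.91 and 0.828, edgeR). The part of these marker sums in the Serpinb11 difference was not tested. In the order along chromosome 1, Serpinb11 lies directly before Serpinb7, Serpinb2 and Serpinb10, the genes whose upstream sequence is printed with it.

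Serpinb5 encodes maspin, a clade B serpin without protease-inhibiting activity of the classical kind. It stood at 360.3, 331 and 247 TPM in Touchdome, 196, 232 and 191 TPM in HF and 303, 230.2 and 215 TPM in IFE libraries. Touchdome lay above HF, whereas HF and IFE overlapped. Its log2 fold change was 0.54 ± 0.14 (adjusted p = 0.0132, edgeR) in Touchdome against HF and -0.42 ± 0.14 (adjusted p = 0.0336) in HF against IFE. In Touchdome against HF the call was lost without HF replicate 3 (adjusted p = 0.05), Touchdome replicate 1 (0.061) or Touchdome replicate 2 (0.0519). In HF against IFE it was lost without any 1 of the HF libraries (adjusted p = 0.0855, 0.0736 and 0.0947 for replicates 1, 2 and 3), without IFE replicate 1 (0.0756) or IFE replicate 2 (0.0696), and on the TPM scale (0.287). Serpinb6a, an intracellular serpin, stood at 144, 136 and 135 TPM in Touchdome, 127, 142 and 138 TPM in HF and 144, 153 and 160.4 TPM in IFE libraries. HF lay just below IFE, and the log2 fold change was -0.46 ± 0.11 (adjusted p = 0.00637), but -0.17 (0.263) with limma on log2(TPM + 1). Its counts were not whole in any of the 9 libraries, so reads were shared with other genes throughout.

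The remaining tested clade B genes were not called in the main edgeR fit, and Serpinb6c and Serpinb6e were not tested. Serpinb8, whose human counterpart inhibits furin, stood at 77, 71.2 and 58.1 TPM in Touchdome, 89.3, 84.7 and 95.9 TPM in HF and 72.1, 55.9 and 66.8 TPM in IFE libraries, with HF above both other groups (adjusted p = 0.126 in Touchdome against HF and 0.175 in HF against IFE, edgeR). Serpinb3b, a mouse homolog of the squamous cell carcinoma antigens, was at 4.75, 10.2 and 8.86 TPM in Touchdome, 5.08, 5.89 and 4.92 TPM in HF and 0.93, 3.36 and 2.51 TPM in IFE libraries. Touchdome lay above IFE in it (log2 fold change 1.63 ± 0.46, adjusted p = 0.139), and with the replicate block the value was 1.70 (adjusted p = 0.0449). Serpinb12 was at 6.24 to 8.47 TPM in Touchdome, 2.67 to 5.4 TPM in HF and 1.47 to 3.93 TPM in IFE libraries. Serpinb1a, an inhibitor of neutrophil elastase, was at 8.29 to 14.7 TPM in Touchdome, 8.72 to 10.2 TPM in HF and 5.08 to 9.35 TPM in IFE libraries. Serpinb9, an inhibitor of granzyme B, did not pass 4.41 TPM in any library. Serpinb6c and Serpinb6e had at most 3.03 and 2.27 TPM, each in an HF library.

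The clade A genes expressed here came mainly from the Serpina3 group, which has several near-identical copies in the mouse. Serpina3n (ENSMUSG00000021091), an inhibitor of granzyme B and other serine proteases, stood at 0.44, 0.32 and 0.96 TPM in Touchdome, 9.43, 11.5 and 10.5 TPM in HF and 0.13, 0.26 and 0.45 TPM in IFE libraries. The 3 HF libraries lay above all others. The fitted log2 fold change was -4.12 ± 0.48 (adjusted p = 5.04e-05, edgeR) in Touchdome against HF and 4.91 ± 0.50 (adjusted p = 9.85e-06) in HF against IFE. Serpina3g, an intracellular inhibitor of lysosomal cathepsins, stood at 23.7, 39.01 and 44.3 TPM in Touchdome, 71.6, 96.7 and 87.2 TPM in HF and 22.96, 42.7 and 41.2 TPM in IFE libraries. HF was again above both other groups, which overlapped. On the log2 scale the fold change was -1.17 ± 0.29 (adjusted p = 0.0146) in Touchdome against HF and 0.98 ± 0.29 (adjusted p = 0.0245) in HF against IFE. The first call was lost without Touchdome replicate 1 (adjusted p = 0.0631), the other without HF replicate 2 (0.0765) or HF replicate 3 (0.067), and both with no filter on low counts (0.0646 in Touchdome against HF and 0.0956 in HF against IFE). Its counts were not whole in 8 libraries.

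Serpina9 was at 1.25, 0.22 and 0.52 TPM in Touchdome, 2.15, 2.77 and 3.29 TPM in HF and 0.73, 0.09 and 0.60 TPM in IFE libraries, with HF above the others. The log2 fold change here was -2.18 ± 0.60 (adjusted p = 0.0169, edgeR) in Touchdome against HF and 2.80 ± 0.60 (adjusted p = 0.00307) in HF against IFE. The first call was lost without HF replicate 1 (adjusted p = 0.0633) or Touchdome replicate 2 (0.0586), and with limma on log2(TPM + 0.1) (0.054). Serpina3f and Serpina3i ran the other way. Serpina3f was at 2.6, 3.86 and 3.28 TPM in Touchdome, 0.43, 1.0 and 0.71 TPM in HF and 3.0, 3.67 and 3.53 TPM in IFE libraries, with HF lowest in every library. Its log2 fold change was 2.32 ± 0.43 (adjusted p = 0.00144) in Touchdome against HF and -2.57 ± 0.43 (adjusted p = 0.000461) in HF against IFE. Serpina3i was at 17.7, 20.9 and 18.1 TPM in Touchdome, 11.1, 18.9 and 10.5 TPM in HF and 33.2, 22.2 and 25.4 TPM in IFE libraries, and was lower in HF than in IFE (-1.07 ± 0.20, adjusted p = 0.00104).

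Serpina3b varied most within HF, at 10.3, 22.7 and 14.9 TPM in Touchdome, 2.25, 27.4 and 7.86 TPM in HF and 14.1, 13.3 and 18.5 TPM in IFE libraries. HF replicates 1 and 2 were the lowest and the highest of the 9 libraries, and the gene was not called. Serpina3j was also highest in HF replicate 2, at 1.79, 12.2 and 3.3 TPM in HF, against 0.28 to 2.42 TPM in Touchdome and 0 to 1.36 TPM in IFE libraries, and was not called. Serpina12, which encodes vaspin, an inhibitor of KLK7, did not pass 2.61 TPM in any library and was not called.

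Of the serpins outside clades A and B, Serpinh1 was the most abundant. It encodes HSP47, a collagen chaperone of the endoplasmic reticulum that does not inhibit proteases. It stood at 118, 108 and 115 TPM in Touchdome, 202, 226 and 209 TPM in HF and 106, 98.7 and 101 TPM in IFE libraries, without overlap between the groups. The fitted log2 fold change was -0.77 ± 0.10 (adjusted p = 9.4e-05, edgeR) in Touchdome against HF, 0.83 ± 0.10 (adjusted p = 3e-05) in HF against IFE and 0.06 ± 0.10 (adjusted p = 0.912) in Touchdome against IFE. The summed level of 6 fibroblast markers was 32.4 to 42.5 TPM in Touchdome, 20.4 to 31.5 TPM in HF and 0.21 to 1.61 TPM in IFE libraries. Its genes went different ways, with Col1a2 at 5.38 to 7.68 TPM in Touchdome, 17.97 to 25.95 TPM in HF and 0 to 0.19 TPM in IFE libraries, the order of Serpinh1 between Touchdome and HF. Dcn was at 17.7 to 26.8 TPM in Touchdome, 0 to 0.07 TPM in HF and 0 to 0.32 TPM in IFE libraries, and Lum was at 0 TPM in the Touchdome and HF libraries. Their part in the Serpinh1 difference was not tested.

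Serpine2, which encodes the thrombin and urokinase inhibitor protease nexin-1, stood at 0.87, 0.32 and 2.18 TPM in Touchdome, 4.5, 2.55 and 4.43 TPM in HF and 0.45, 0.15 and 1.56 TPM in IFE libraries. HF lay above both other groups, and the log2 fold change was 2.79 ± 0.75 (adjusted p = 0.0114, edgeR) in HF against IFE and -1.57 ± 0.71 (adjusted p = 0.134) in Touchdome against HF. Serping1, which encodes the complement C1 inhibitor, stood at 6.48, 3.79 and 11.4 TPM in Touchdome, 8.45, 10.5 and 6.91 TPM in HF and 2.02, 2.69 and 4.86 TPM in IFE libraries. HF lay above IFE, and the Touchdome libraries overlapped both. On the log2 scale the fold change was 1.11 ± 0.39 (adjusted p = 0.0439) in HF against IFE, a call lost without HF replicate 1 (0.11), HF replicate 2 (0.122), IFE replicate 1 (0.138), IFE replicate 2 (0.0981) or Touchdome replicate 1 (0.0602).

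Serpinc1, the antithrombin gene, was at 0.24, 0 and 0 TPM in Touchdome, 0.78, 1.06 and 2.11 TPM in HF and 0.54, 3.14 and 0.47 TPM in IFE libraries. Its counts were not whole in 4 libraries, and it was not called. Serpinf1 reached 4.62 TPM in HF replicate 3 and did not pass 1.13 TPM in any Touchdome or IFE library.

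Other genes of the protease network were counted from 4 lists. Of 15 tested skin, coagulation and plasminogen proteases, in Touchdome against HF 5 were called higher and 5 lower, and in HF against IFE 4 higher and 5 lower, where 24.6% and 33.0% of all genes were called. Between Touchdome and IFE edgeR called 0, where 1.3% of all genes were called. At an unadjusted p under 0.05, 2 were higher and 2 lower, and DESeq2 called 1 higher and 2 lower. The share of all genes under these other rules is not given here. Plau, which encodes urokinase, a target of Serpinb2, was at 31.1 to 36.6 TPM in Touchdome, 8.41 to 11.5 TPM in HF and 30.8 to 31.6 TPM in IFE libraries. It was lower in HF than in IFE (log2 fold change -1.91, adjusted p = 9.69e-07, edgeR) and higher in Touchdome than in HF (1.89, 1.84e-06), the same direction as Serpinb2. Tmprss4, a membrane-bound serine protease, was at 82.7 to 102 TPM in Touchdome, 15.01 to 18.4 TPM in HF and 62.5 to 68.8 TPM in IFE libraries (log2 fold change 2.48 and adjusted p = 1.94e-07 in Touchdome against HF). Htra1, a secreted serine protease, was at 294 to 351 TPM in Touchdome, 151 to 166 TPM in HF and 370.3 to 389 TPM in IFE libraries (1.10, adjusted p = 2.64e-05 in Touchdome against HF). Prss23, named with Htra1 for its level, was at 184 to 218 TPM in Touchdome and 205 to 291 TPM in IFE libraries, and was not called between them.

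Of 15 tested cysteine and aspartic proteases, in Touchdome against HF 3 were called higher and 5 lower, and in HF against IFE 6 higher and 3 lower, beside the 24.6% and 33.0% of all genes. Between Touchdome and IFE edgeR called 0, where 1.3% of all genes were called. At an unadjusted p under 0.05, 3 were higher and 0 lower, and DESeq2 called 0, with no share of all genes given here for these rules. Casp14, the caspase of cornification, was at 21.3 to 27.9 TPM in Touchdome, 3.62 to 8.37 TPM in HF and 15.97 to 26.1 TPM in IFE libraries (log2 fold change 2.20, adjusted p = 0.000294 in Touchdome against HF, edgeR). Capn2, a calcium-dependent protease, ran the other way, at 17.2 to 41.2 TPM in Touchdome, 89.6 to 104 TPM in HF and 13.7 to 16.4 TPM in IFE libraries (-1.74, adjusted p = 0.000475). Ctsl and Ctsz encode lysosomal cathepsins and were both highest in HF, Ctsl at 99.8 to 131 TPM and Ctsz at 49.6 to 59.2 TPM. In Touchdome libraries Ctsl was at 69.7 to 71.3 TPM and Ctsz at 8.9 to 26.3 TPM. The adjusted p in Touchdome against HF was 0.00192 for Ctsl and 0.00237 for Ctsz. The abundant cathepsin genes Ctsd and Ctsb were at 228 to 286 and 199.6 to 263 TPM in Touchdome, against 208 to 221 and 197 to 255 TPM in IFE libraries, and were not called between these groups.

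Of 12 tested genes listed as inhibitors outside the serpin and Spink families, 3 were higher and 3 lower in each of the comparisons with HF, Touchdome against HF (24.6% of all genes called) and HF against IFE (33.0%). These counts include Anxa2, higher in Touchdome than in HF and lower in HF than in IFE, which is a partner of plasminogen activation rather than an inhibitor. Pi15, which encodes a secreted protein described as a trypsin inhibitor, was the 1 called higher in Touchdome than in IFE. In that comparison 0 were called lower, where 1.3% of all genes were called. At an unadjusted p under 0.05, 4 were higher and 1 lower, with no share of all genes given here for this rule. Pi15 was at 10.9 to 12.1 TPM in Touchdome, 25.8 to 26.7 TPM in HF and 0, 0 and 0.13 TPM in IFE libraries (adjusted p = 0.000182 in Touchdome against IFE, edgeR). Stfa1, a stefin that inhibits cysteine proteases, was at 25.1, 6.01 and 7.02 TPM in Touchdome and 0 TPM in all 3 HF libraries, with 7.25, 1.98 and 7.97 TPM in IFE libraries. It belongs to a group of near-identical copies, as does Stfa3, at 82.03 to 214 TPM in Touchdome, 8.03 to 21.2 TPM in HF and 15.04 to 70.9 TPM in IFE libraries. Wfdc3, a gene with whey acidic protein domains, was at 1.57 to 10.9 TPM in Touchdome, 73.2 to 101 TPM in HF and 0.24 to 1.77 TPM in IFE libraries (log2 fold change 6.01, adjusted p = 0.000296 in HF against IFE). Anxa2, a cell-surface partner of plasminogen activation, was at 1682 to 2179 TPM in Touchdome, 1234 to 1238 TPM in HF and 2171 to 2411 TPM in IFE libraries (-1.15, 4.45e-05).

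Of 12 tested receptors and substrates, in Touchdome against HF 3 were called higher and 1 lower, and in HF against IFE 2 higher and 4 lower, against 24.6% and 33.0% of all genes. Between Touchdome and IFE edgeR called 0, where 1.3% of all genes were called. At an unadjusted p under 0.05, 2 were higher and 0 lower, and DESeq2 called 1 higher, with no share of all genes given here for these rules. Dsg1a, which encodes desmoglein 1, a junction protein that kallikreins cleave, was at 265 to 348 TPM in Touchdome, 70.1 to 105 TPM in HF and 203 to 334 TPM in IFE libraries. It was higher in Touchdome than in HF (log2 fold change 1.93, adjusted p = 9.93e-06, edgeR) and lower in HF than in IFE (-1.86, 7.83e-06), as were Klk11, Klk10, Klk9 and Klk8. Its near copy Dsg1b was at 41.2 to 43.2 TPM in Touchdome and 18.1 to 22.98 TPM in HF libraries (adjusted p = 0.00265), and reads of such copies may be divided unevenly. Dsc1, a desmosomal cadherin gene, was higher in HF (11.4 to 24.7 TPM) than in IFE (4.83 to 6.48 TPM, adjusted p = 0.00069). F2r, the thrombin receptor gene, was at 22.5 to 34.4 TPM in Touchdome, 10.9 to 11.8 TPM in HF and 24.01 to 30.95 TPM in IFE libraries (1.32, adjusted p = 6.11e-05 in Touchdome against HF). Lrp1, which clears protease and serpin complexes, was at 79.5 to 119 TPM in Touchdome, 64.3 to 88.97 TPM in HF and 81.3 to 84.5 TPM in IFE libraries and was not called. The summed suprabasal keratinocyte markers, at 6207 to 8477 TPM in Touchdome, 2053 to 2342 TPM in HF and 3450 to 4976 TPM in IFE for 7 genes, were likewise lowest in HF. Krt1 and Krt10 made up most of this sum in Touchdome and IFE, whereas Sbsn (798 to 1086 TPM in HF and 249 to 409 TPM in IFE, adjusted p = 0.000658, edgeR) and Ivl (log2 fold change 1.48, adjusted p = 0.00473) were higher in HF than in IFE. Their part in the differences with HF was not tested.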

How the data were processed

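The authors deposited, for each library, an expected count per gene, left unscaled, and a TPM value, scaled by length to a fixed total. The submitters' processing notes name the build mm39 and RSEM 1.3.3, STAR 2.7.9a and DESeq2 1.38.2, without roles; annotation release and strandedness were not given in the sources used here, so overlapping and antisense genes are uncertain. Symbols and biotypes came from GENCODE M21 (52081 identifiers matched); Serpinb10 is protein coding in RefSeq only and was kept. Expected counts were whole in 92.5% to 94.6% of genes per library, and 7 reported members had values that were not whole (a sign of shared reads). Counts were rounded, filtered with filterByExpr (minimum count 10, minimum total 15), TMM-scaled and tested with edgeR 4.0.16 (robust quasi-likelihood) in R 4.3.3, all 9 libraries entering a single model, and adjusted by Benjamini-Hochberg over 15046 genes. The fitting procedure was tested on simulated data. A count of 0 allows up to 0.106 to 0.323 CPM per library (3 counts, counting error only). No libraries of a group agreed within sampling noise.

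Alternatives were RLE factors, DESeq2 1.42.0, no filter, a replicate block, 2-group fits, limma 3.58.1 on log2 TPM with pseudocounts of 1 and 0.1, and leaving out each library. Libraries with the same number deviated together weakly between Touchdome and IFE (r = 0.146, 0.173 and 0.203), as they might with a shared animal or day. The labels state no such pairing, it was not tested, and the main fit does not use it. With HF, r was -0.026 to 0.07. Members and gene lists were chosen with earlier results of these data known. Values in every library are given for up to 8 called members per direction and comparison and for the 4 most abundant per family; of the other lists, up to 3 called members, or the 2 most abundant, are named. Of the members, 1 enters the counts and sums, but its own values are not reported here. Serpinb3b, Serpinb8, Serpinc1, Klk7 and Serpina3j are outside this rule and were chosen after their values were seen.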

Additional observations from a re-analysis of the deposited data

How the results depend on the processing

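Of the members called, 1 of 1 in Touchdome against IFE, 11 of 16 in Touchdome against HF and 14 of 19 in HF against IFE were called in the same direction under each of the 16 alternatives, and no called member reversed. In Touchdome against IFE the number called higher was 4 with DESeq2, 2 with no filter and 2 with the replicate block, and the number called lower was 3 with DESeq2, 2 with no filter, 3 with the replicate block and 1 when the HF libraries were left out of the fit. The share of all genes called under these alternatives is not given here. Leaving out 1 library at a time gave 1 to 2 higher and 0 lower there, with 2 without IFE replicate 2, 8 to 11 higher and 4 to 7 lower in Touchdome against HF, and 6 to 11 higher and 10 to 11 lower in HF against IFE. Without Touchdome replicate 3 the numbers were 1 and 0, 11 and 7, and 8 and 11. Beside the results given with it, the block changed no call of a named member in Touchdome against IFE.

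Uncalled values between Touchdome and IFE changed sign for Ctsb (0.032 with limma on either TPM scale), for Ctsd (-0.022 without Touchdome replicate 3, in a range up to 0.134 over the libraries left out), for Dsg1a (-0.062 without IFE replicate 2 and -0.020 without Touchdome replicate 2, up to 0.196) and for Lrp1 (-0.236 without IFE replicate 2 and -0.106 without Touchdome replicate 1, up to 0.311). The cause was not tested. Depth limits genes that rest on few counts per library, among them Klk13, Klk9, Klk6, Spink2, Serpina9 and the low serpins.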

Other observations

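Serpina3h, annotated as a transcribed pseudogene and so no member, was more abundant than any clade A gene reported. It stood at 305, 360.0 and 239.6 TPM in Touchdome, 117, 117 and 133 TPM in HF and 347, 311 and 314 TPM in IFE libraries. Its log2 fold change was 1.37 ± 0.14 (SE) in Touchdome against HF and -1.62 ± 0.14 in HF against IFE (edgeR, 3 libraries per group). Touchdome and IFE lay above HF in it, the opposite order to Serpina3n and Serpina3g. Whether reads were shared between it and the near-identical Serpina3 genes was not tested.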
